A study of Mus musculus with 6 samples.

Results

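Ferroptosis is a form of cell death in which iron-driven peroxidation of membrane lipids goes unrepaired. The main defence starts with cystine, which the xCT transporter brings into the cell in exchange for glutamate and which is reduced to cysteine for glutathione. The enzyme GPX4 then spends glutathione to reduce lipid hydroperoxides, while FSP1 (the product of Aifm2) regenerates lipophilic radical traps without glutathione, and ACSL4 loads membranes with the polyunsaturated fatty acids that peroxidise most readily. Many genes of the defence, among them Slc7a11, Gclc, Gclm, Gsr, Nqo1 and Srxn1, are known targets of the oxidant-responsive factor NRF2, and Slc7a11 is also a target of the stress-responsive factor ATF4. The 10 genes described here are Slc7a11, Gclc, Gclm, Gss, Gsr, Gpx4, Srxn1, Aifm2, Nqo1 and Acsl4. They were chosen by name for their place in this defence, with earlier results of these data known. They are 10 of the 55450 genes in the deposited tables, and all 10 were among the 22056 genes with enough counts to be tested.

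RNA was sequenced from 6 tumours raised from MTE-Ras cells. These are cancer cells of mouse tracheal epithelium that carry a transforming oncogenic RAS mutation, and they had been placed under the skin of the right flank of C57BL/6 mice. Of these tumours 3 received phosphate-buffered saline (PBS) by injection into the lesion, and 3 received PV-10, which contains the dye rose bengal. The labels give them as separate tumours of treated mice, so p-values measure the spread between tumours. All groups share the cell line and its RAS mutation, so they speak for 1 line. The labels used here give no dose, no time between injection and collection, and neither age nor sex of the mice. The comparison of PV-10 with PBS asks how RNA for this defence differed in injected tumours.

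Total counts ran from 36730318 to 98717951 per tumour. PV-10 tumour 3 correlated better with the PBS tumours (Pearson's r of log2 CPM, counts scaled to library size, across genes 0.909 to 0.930) than with PV-10 tumours 1 and 2 (0.874 and 0.822), so the change of each of the 10 genes, and of pathway genes whose call turned on it, is also given without it. Leaving out a tumour picked for its likeness to PBS can widen the group difference, so fits without it are no added support. The 10 most abundant genes took 13.3% to 13.7% of counts in PBS tumours and 23.7% to 27.1% in PV-10 tumours. Genes with any count numbered 35314 and 28343 in PV-10 tumours 1 and 2, the libraries with the lowest total counts. They numbered 22764 in PV-10 tumour 3 and 19163 to 23068 in PBS tumours. The source of this difference was not tested, and it bears on every comparison of counts below. Of the 10 epithelial markers, the keratins Krt8, Krt18 and Krt19 were well expressed, Cdh1 was low (8.75 to 10.3 CPM in PBS and 3.06 to 5.62 in PV-10 tumours), Epcam did not exceed 1.31, and Scgb1a1 was at 0 in every tumour. The summed level of these markers was 522 to 866 in PBS and 511 to 694 in PV-10 tumours. The 6 skeletal muscle markers summed to 2.25 to 16.0 in PBS tumours against 58.5, 312 and 3.60 after PV-10 in tumours 1, 2 and 3, with Myh4 at 0 in PBS tumours 1 and 2 and PV-10 tumour 3, and 0 of the 6 were called. The 8 leukocyte and macrophage markers summed to 1186 to 1821 after PBS and 1474 to 1719 after PV-10, but within the list Csf1r and Itgam lay wholly below PBS and Lyz2 wholly above. The 7 fibroblast markers summed to 2111 to 4313 and 2422 to 4007, with Pdgfrb wholly below and Lum and Pdpn wholly above, and the 5 endothelial markers to 185 to 372 and 103 to 335, with Kdr wholly below. The adipocyte markers (3.31 to 6.36 after PBS, 7.36 to 19.1 after PV-10) and the erythroid markers (at most 5.91 after PBS and at least 6.82 after PV-10) had low sums that did not overlap. Of 57 markers in all lists, 6 lay wholly above PBS and 6 wholly below, beside 22.0% and 16.8% of all genes tested, and 0 were called. The part of these cells in the results was not tested. These are pieces of whole tumour, so fewer cells of a type and less RNA per cell cannot be told apart in any result below.

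Promoter sequences of 4 genes are shown because they carry the short motifs through which ATF4 and NRF2 are known to act. Each line gives 200 bases ahead of the gene (build GRCm38.p6), read 5′ to 3′ on the gene's own strand. It stops before the RefSeq start or before the first base of the gene in Gencode release M21, whichever comes first. Positions given below count from the RefSeq start. In a line that stops short of that start, a match therefore lies nearer to the line's end than its position says. Capitals mark matches on either strand to TGATGNAA, the core of the C/EBP-ATF composite element, in Slc7a11 and Chac1, where other motifs are left in lower case. In Gclm and Srxn1 they mark TGACNNNGC or TGAGNNNGC, cores of the antioxidant response element.
Slc7a11, chr3:50443615-50443814, minus strand: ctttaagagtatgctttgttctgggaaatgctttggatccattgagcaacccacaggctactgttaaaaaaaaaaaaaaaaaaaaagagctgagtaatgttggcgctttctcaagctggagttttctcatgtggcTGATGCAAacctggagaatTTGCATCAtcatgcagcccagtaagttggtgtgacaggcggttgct
Chac1, chr2:119351029-119351228, plus strand: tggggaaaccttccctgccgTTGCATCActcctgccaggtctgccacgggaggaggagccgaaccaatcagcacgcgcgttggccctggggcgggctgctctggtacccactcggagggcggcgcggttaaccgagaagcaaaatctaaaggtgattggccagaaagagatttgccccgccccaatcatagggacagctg
Gclm, chr3:122245357-122245556, plus strand: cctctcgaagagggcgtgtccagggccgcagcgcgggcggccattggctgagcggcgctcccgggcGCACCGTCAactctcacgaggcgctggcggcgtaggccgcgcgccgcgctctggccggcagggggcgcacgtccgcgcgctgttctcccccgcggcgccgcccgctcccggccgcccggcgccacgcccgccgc
Srxn1, chr2:152105316-152105515, plus strand: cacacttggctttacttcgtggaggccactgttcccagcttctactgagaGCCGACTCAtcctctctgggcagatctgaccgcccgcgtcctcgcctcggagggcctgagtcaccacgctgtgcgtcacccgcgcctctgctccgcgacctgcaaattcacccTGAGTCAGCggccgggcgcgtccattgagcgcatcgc
The Slc7a11 window holds TGATGCAA once on each strand, with first bases at -66 and -47 from the start. The Chac1 window holds it once, at -193 on the opposite strand. Of 32851 RefSeq windows of the 250 bases before a start, 3.45% held TGATGNAA, 10.2% held TGACNNNGC and 14.4% held TGAGNNNGC. Of the 10 genes, 8 had a window in the table (Gclc and Gsr had none). TGATGNAA was in the window of Slc7a11 alone among these 8, TGACNNNGC in that of Gclm alone, and TGAGNNNGC in those of Slc7a11, Acsl4 and Srxn1. Of 119 other pathway genes in the table, TGATGNAA was in the windows of 2 (Chac1 and Atf3) and TGACNNNGC in those of 19. The antioxidant match in Gclm lay at -134, and those in Srxn1 at -158 and -45. These are letter matches and not measured sites of binding.

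Values per tumour are TMM-scaled CPM unless TPM is named, and changes are log2 ratios of PV-10 to PBS from edgeR's quasi-likelihood test on the counts, with Benjamini-Hochberg adjustment over all 22056 genes. A gene was called at an adjusted p under 0.05. Of the 10 genes, 0 were called higher and 0 lower. Among all genes tested 3.17% were called higher and 1.92% lower, so a set of 10 would hold few calls at the background rate. At an unadjusted p under 0.05, 3 of the 10 stood out in this edgeR test, namely Gpx4 (higher), Slc7a11 and Gsr (both lower). The median change of the 10 was -0.10, against 0.30 for all genes tested, with 4 of the 10 above 0 and 6 below. That background differed with count level. The median was -0.35 for the 10264 genes with a mean count of at least 500 and 1.25 for those under it. Among the 10, only Nqo1 had a mean count under 500. The median of the 10 thus lay below that of all genes tested but above that of the well-counted genes. In CPM, 1 of the 10 (Gpx4) had all PV-10 tumours above all PBS tumours and 0 had them all below, against 22.0% and 16.8% of all genes tested. With DESeq2, the tool the labels name, 1 of the 10 (Gpx4) was called higher and 0 lower, where 21.2% of all genes were called higher and 8.41% lower. Without PV-10 tumour 3 edgeR called 1 of the 10 higher (Gpx4) and 3 lower (Slc7a11, Gclc and Gsr), where 25.0% and 16.4% of all genes were called. The other 6 were not called without that tumour, with changes of -0.04 for Gclm, 0.12 for Gss, -0.38 for Srxn1, -0.72 for Aifm2, 1.62 for Nqo1 and 0.01 for Acsl4.

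**Figure D1:**
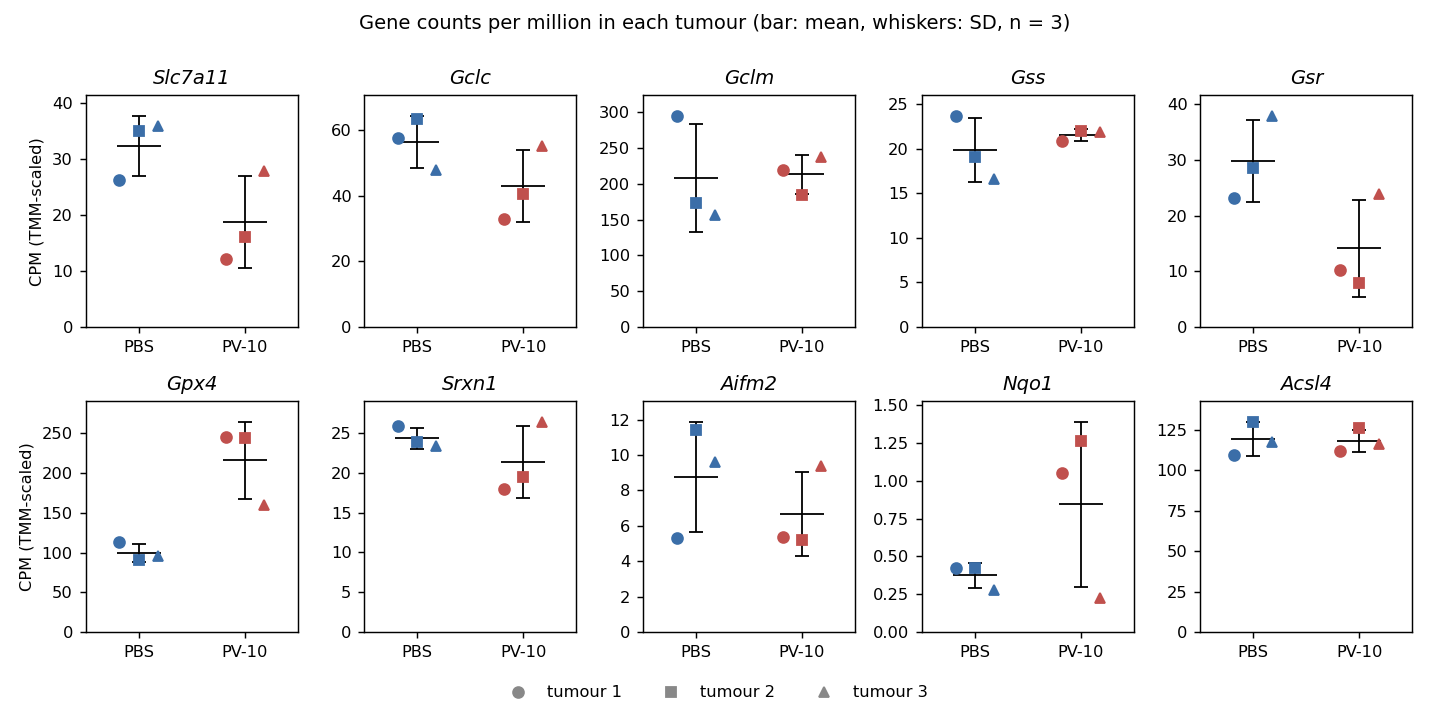
TMM-scaled CPM (y axis, from 0) of the 10 genes in each tumour (x axis, PBS in blue and PV-10 in red; marker shapes give the tumour number). Bars are means and whiskers SD of 3 tumours. Gpx4 is the gene whose 3 PV-10 tumours all lie above the 3 PBS tumours, and PV-10 tumour 3 lies nearer to PBS than the other PV-10 tumours for Slc7a11, Gsr and Gpx4.

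RNA for cystine import had its lowest values in PV-10 tumours 1 and 2, and neither xCT subunit passed the test. Slc7a11 (ENSMUSG00000027737.10, chr3:49892526-50443614 on mm10, minus strand) encodes the exchanging subunit of xCT. It stood at 26.2, 34.9 and 35.8 CPM after PBS in tumours 1, 2 and 3 and at 12.2, 16.0 and 27.9 CPM after PV-10 in the same order. PV-10 tumours 1 and 2 were below every PBS tumour, while PV-10 tumour 3 lay inside the PBS range. The means were 32.3 ± 5.28 and 18.7 ± 8.18 CPM (SD, n = 3 each), 0.579 of the PBS level, with a log2 change of -0.79 (SE 0.34, 95% interval -1.55 to -0.03, edgeR adjusted p = 0.153). Without PV-10 tumour 3 the change was -1.19 and the gene was called lower (edgeR adjusted p = 0.00829). With any 1 of the other 5 tumours left out, its edgeR adjusted p ran from 0.186 to 0.386. Slc3a2, the heavy chain that carries xCT to the membrane and serves other amino acid transporters too, had 173, 171 and 142 CPM after PBS and 39.7, 69.5 and 117 CPM after PV-10. All PV-10 tumours were below all PBS tumours, with a log2 change of -1.11 (95% interval -1.96 to -0.25) that missed the threshold (edgeR adjusted p = 0.0890).

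The 3 genes of glutathione synthesis overlapped between the groups in CPM, and none of the 3 was called by edgeR. Gclc (ENSMUSG00000032350.9, chr9:77754535-77794485, plus strand) encodes the catalytic subunit of the rate-limiting enzyme, glutamate-cysteine ligase. It had 57.6, 63.6 and 48.0 CPM after PBS and 33.1, 40.7 and 55.1 CPM after PV-10 in the same order. The groups overlapped through PV-10 tumour 3, and the log2 change was -0.39 (95% interval -1.02 to 0.23, edgeR adjusted p = 0.370). Without that tumour it was -0.61 and called lower (edgeR adjusted p = 0.0412). With any 1 of the other 5 tumours left out, its edgeR adjusted p ran from 0.393 to 0.704.

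Gclm (ENSMUSG00000028124.15, chr3:122245557-122270732, plus strand), the modifier subunit that raises the ligase's affinity for its substrate, had 294, 173 and 156 CPM after PBS and 219, 184 and 237 CPM after PV-10. PBS tumour 1 was the highest of the 6 and the other 5 ranged together, with a log2 change of 0.04 (95% interval -0.66 to 0.74, edgeR adjusted p = 0.944). Gm17494, which overlaps Gclm on the other strand, held 87 to 642 counts against 6709 to 25838 for Gclm. Gss (ENSMUSG00000027610.17, chr2:155563181-155592810, minus strand), the synthetase that adds glycine, stood at 23.6, 19.1 and 16.6 CPM after PBS and at 20.8, 22.0 and 21.8 CPM after PV-10. All PV-10 values lay inside the PBS range, with a log2 change of 0.12 (95% interval -0.43 to 0.68, edgeR adjusted p = 0.760). The Gss locus overlaps Acss2 and the antisense genes Gssos1 and Gssos2 on the other strand. The libraries were strand-specific, but the strand setting of the counting is not given in the sources used here, and these neighbours held 0 to 470 counts against 803 to 2078 for Gss.

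The glutathione recycling gene had the largest difference below PBS among the 10, without passing the test. Gsr (ENSMUSG00000031584.16, chr8:33652523-33698163, plus strand) encodes glutathione reductase, which returns oxidised glutathione to its reduced form with NADPH. It stood at 23.2, 28.5 and 37.8 CPM after PBS and at 10.3, 7.97 and 23.9 CPM after PV-10 in the same order. PV-10 tumours 1 and 2 lay far below every PBS tumour, and PV-10 tumour 3 lay just above PBS tumour 1. The means were 29.8 ± 7.39 and 14.1 ± 8.63 CPM (SD, n = 3 each), 0.473 of the PBS level, with a log2 change of -1.08 (SE 0.42, 95% interval -2.02 to -0.14, edgeR adjusted p = 0.118). Gsr was below 0 in all 21 alternative settings, as was Aifm2, and was called lower in 6 of them, Aifm2 in 0. Without PV-10 tumour 3 it was at -1.70 (edgeR adjusted p = 0.00364). With any 1 of the other 5 tumours left out, the edgeR adjusted p of Gsr ran from 0.153 to 0.341. A small nucleolar RNA gene, Gm24727, lies within Gsr on the same strand and held 2169 to 4971 counts in PBS and 5955 to 17218 in PV-10 tumours, so reads shared between them are an uncertainty of this value.

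The lipid repair enzyme had higher values in every PV-10 tumour and narrowly missed the threshold. Gpx4 (ENSMUSG00000075706.10, chr10:80047166-80056439, plus strand) encodes the selenoenzyme that reduces phospholipid hydroperoxides and whose loss sets off ferroptosis. It had 113, 91.2 and 95.5 CPM after PBS in tumours 1, 2 and 3 and 245, 244 and 160.2 CPM after PV-10 in the same order. Every PV-10 tumour lay above every PBS tumour, and PV-10 tumour 3 was again the nearest to PBS. The means were 99.9 ± 11.5 and 216 ± 48.8 CPM (SD, n = 3 each), a 2.17-fold difference with a log2 change of 1.12 (SE 0.28, 95% interval 0.49 to 1.74, edgeR adjusted p = 0.0505). Gpx4 was above 0 in all 21 alternative settings and called higher in 9 of them. Among these were DESeq2 (adjusted p = 3.98e-04) and the edgeR fit without PV-10 tumour 3 (1.29, adjusted p = 0.00110). With any 1 of the other 5 tumours left out, its edgeR adjusted p ran from 0.125 to 0.227.

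Gpx4 has a transcribed processed pseudogene, Gpx4-ps2, whose sequence is near that of its parent, and reads can be shared out between them. Gpx4-ps2 held 28.8% to 35.4% of the summed CPM of both genes, with no separation of the groups in that share (31.4% to 35.3% in PBS tumours). The sum was 151 ± 19.6 CPM after PBS and 321 ± 83.5 CPM after PV-10 (SD, n = 3 each). Tested as 1 gene, the pair had a log2 change of 1.08 with an edgeR adjusted p of 0.0574.

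The peroxiredoxin repair gene and both genes of the glutathione-independent arm overlapped between the groups and were not called by edgeR. Srxn1 (ENSMUSG00000032802.8, chr2:152105516-152111376, plus strand) encodes sulfiredoxin, which rescues over-oxidised peroxiredoxins. It had 25.9, 23.9 and 23.3 CPM after PBS and 17.9, 19.5 and 26.4 CPM after PV-10, with a log2 change of -0.19 (95% interval -0.76 to 0.37, edgeR adjusted p = 0.631). PV-10 tumours 1 and 2 were the lowest of the 6 and PV-10 tumour 3 the highest. Aifm2 (ENSMUSG00000020085.15, chr10:61715263-61739260, plus strand), whose product FSP1 reduces coenzyme Q10 and vitamin K at membranes, had 5.30, 11.4 and 9.59 CPM after PBS and 5.40, 5.18 and 9.40 CPM after PV-10. PBS tumour 1 sat with PV-10 tumours 1 and 2 at the low end, and the log2 change was -0.39 (95% interval -1.25 to 0.47, edgeR adjusted p = 0.512). H2afy2 overlaps Aifm2 on the other strand and held 57 to 450 counts, against 189 to 1101 for Aifm2, so this value is uncertain.

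Nqo1 (ENSMUSG00000003849.8, chr8:107388225-107403206, minus strand) encodes the quinone reductase that is a widely used readout of NRF2. It was barely detected, with 37, 41 and 29 counts in PBS and 61, 46 and 20 counts in PV-10 tumours 1, 2 and 3. PV-10 tumours 1 and 2 were the highest (1.05 and 1.26 CPM) and PV-10 tumour 3 the lowest (0.228 CPM). The log2 change of 1.17 had a 95% interval from -1.74 to 4.08 (edgeR adjusted p = 0.567), so at this depth neither a rise nor a fall of several-fold could be told from none.

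The pro-ferroptotic enzyme had nearly equal means in CPM. Acsl4 (ENSMUSG00000031278.12, chrX:142317993-142390535, minus strand) joins arachidonic and adrenic acid to coenzyme A for entry into phospholipids. It had 109, 129.9 and 117 CPM after PBS and 112, 126 and 116 CPM after PV-10. The groups lay on top of each other, with a log2 change of -0.01 (SE 0.24, 95% interval -0.55 to 0.54, edgeR adjusted p = 0.987).

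Levels of different genes were compared in the deposited TPM (transcript abundance scaled for gene length and library total). Over the 6 tumours the order of mean TPM was Gpx4 (151), Gclm (97.5), Acsl4 (16.4), Gclc (10.7), Srxn1 (8.41), Gss (8.11), Gsr (6.96), Aifm2 (3.08), Slc7a11 (2.31) and Nqo1 (0.25). The lipid repair enzyme and the modifier subunit thus stood well above the rest, and the xCT subunit near the bottom. Neighbours in this order overlapped in their ranges over the 6 tumours, except that every value of Gclm lay above every value of Acsl4 and every value of Slc7a11 above every value of Nqo1. The catalytic subunit of the ligase was at 0.0694 to 0.163 of the TPM of its modifier in every tumour.

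Relative to PBS, the TPM scale placed the 10 genes lower in PV-10 tumours than CPM did. Gpx4 had 119, 149 and 141 TPM in PBS and 162, 183 and 153 TPM in PV-10 tumours, still without overlap but with means only 136 ± 15.8 and 166 ± 15.2 (SD, n = 3 each). Slc7a11 went from 3.39 ± 1.13 to 1.24 ± 0.715 TPM, and Gsr from 10.2 ± 3.34 to 3.74 ± 2.84 TPM. Of the 9 genes with a mean TPM of at least 0.5, the 5 named Slc7a11, Gclc, Gclm, Gss and Acsl4 had all PV-10 tumours below all PBS tumours, and Gpx4 had them above. Among all 14340 genes at that level, 45.3% lay wholly below and 4.90% wholly above, so a place below PBS was common on this scale and a place above it was not.

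**Figure D2:**
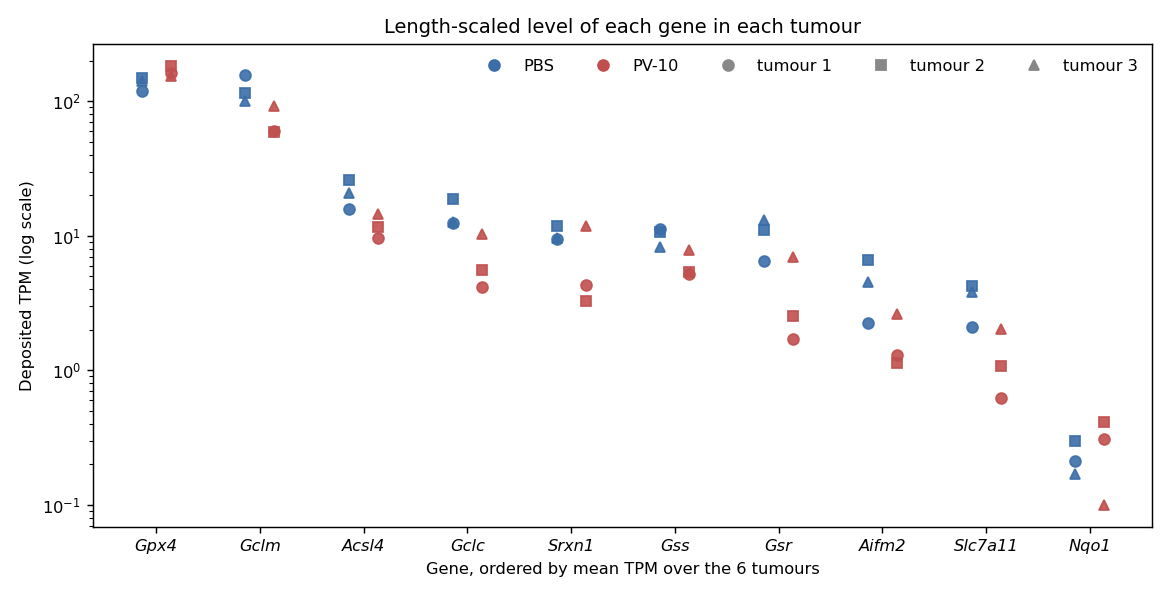
Deposited TPM (y axis, log scale) of the 10 genes in each tumour, ordered along the x axis by mean TPM over the 6 tumours, with PBS in blue and PV-10 in red. Gpx4 and Gclm lie highest and Nqo1 lowest, and Gpx4 is the gene with a mean TPM of at least 0.5 whose PV-10 tumours all lie above PBS.

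In limma on log2(TPM + 1), 2 of the 9 genes were called lower and 0 higher, where 32.6% of all genes were called lower and 1.49% higher. Gsr had a log2 change of -1.35 (adjusted p = 0.0400) in that test and Slc7a11 one of -0.98 (limma adjusted p = 0.0449). Gpx4 was at 0.29 and was not called (adjusted p = 0.405). Acsl4 was at -0.74 (adjusted p = 0.111) and Gclc at -1.08 (adjusted p = 0.0504). The ratio of Acsl4 to Gpx4 in TPM was 0.133, 0.173 and 0.148 in PBS tumours and 0.0595, 0.0641 and 0.0955 in PV-10 tumours 1, 2 and 3. In the edgeR test on counts Acsl4 also had the lower change of the pair (-0.01 against 1.12). The same held with the planned effective length trend removed (-0.16 against 0.27). With the length trend of well-counted genes removed, a setting described below and chosen after seeing the data, Acsl4 had the higher change (0.87 against 0.31).

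The changes were related to gene length, which differs widely among the 10 genes. Across the 10264 genes with a mean count of at least 500, the correlation across genes of the log2 change with log2 effective length was -0.57, and across the 10 genes it was -0.68 (genes are not independent replicates). Gpx4 is the shortest of the 10, with a longest transcript of 995 bases and an effective length 0.286 times that of the median gene, and Slc7a11 the longest, with 9223 bases and 3.70 times. Of these well-counted genes, those within 1.25-fold of Gpx4 in effective length had a median change of 0.84, and those within 1.25-fold of Slc7a11 one of -1.09. Acsl4, at 2.21 times the median gene, had a change of -0.01 beside -0.80 for genes of like length, and Gsr -1.08 beside -0.45.

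**Figure D3:**
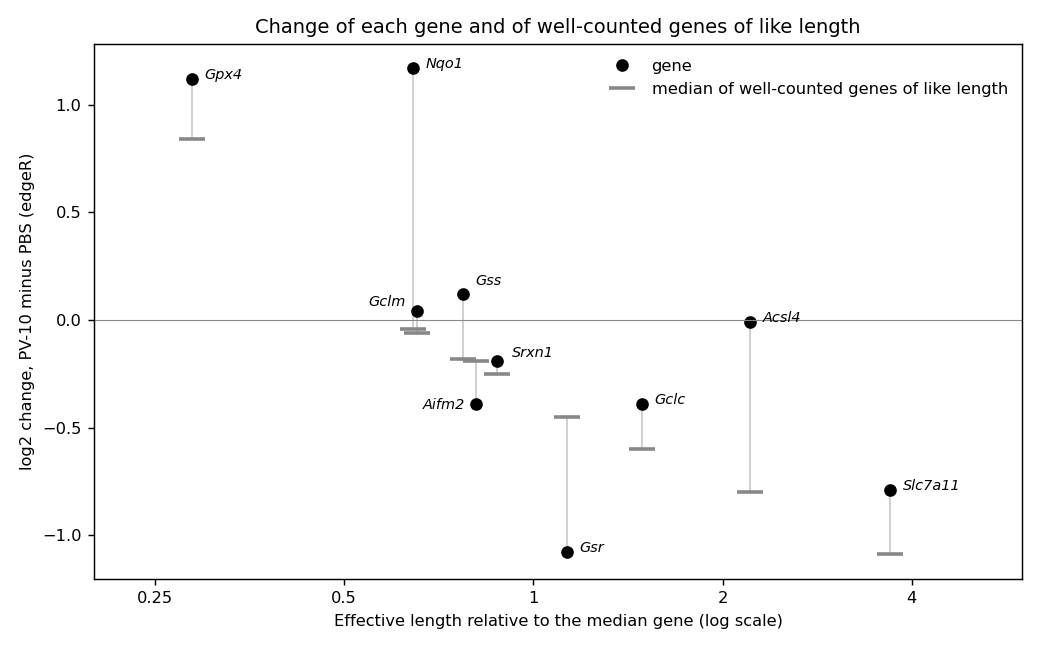
The log2 change of each of the 10 genes from edgeR (y axis, black points) against effective length relative to the median gene (x axis, log scale), with the median change of well-counted genes within 1.25-fold of that length (grey bars). Gpx4 and Slc7a11 lie near the medians of genes of their length (0.84 and -1.09), while Acsl4 lies above its own (-0.80) and Gsr below (-0.45).

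When the length trend of each library was taken out, fitted on the well-counted genes, the order of the genes changed. Gpx4 was then at 0.31 (edgeR adjusted p = 0.297) and Slc7a11 at 0.16 (edgeR adjusted p = 0.652), so neither was called and Slc7a11 had turned its sign. Of the 10 genes 0 were called, and of all genes 2.66% were called higher and 1.14% lower. Acsl4 moved from -0.01 to 0.87 (edgeR adjusted p = 0.0571), and Gsr was at -0.75 (edgeR adjusted p = 0.131). With PV-10 tumour 3 left out as well, Acsl4 was called higher (1.09, edgeR adjusted p = 0.00291) and Gsr lower (-1.08, edgeR adjusted p = 0.0262), where 27.8% of all genes were called higher and 9.14% lower. The mean of Gsr was thus below PBS in CPM, in TPM and with the trend removed. Its groups overlapped through PV-10 tumour 3 in CPM and also overlapped in TPM. With the trend of well-counted genes removed, Slc7a11, Gclc (from -0.39 to 0.16) and Srxn1 (from -0.19 to 0.07) moved above 0. Acsl4 moved from near 0 to above it. Both settings with that trend removed were chosen after seeing the data. In the planned form, with the trend fitted on all genes tested, Slc7a11 was at -0.83 and Gpx4 at 0.27 (edgeR adjusted p = 0.304 and 0.675). Acsl4 was then at -0.16, and a correlation of -0.40 with length was left among the well-counted genes. The source of the length trend was not tested.

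**Figure D4:**
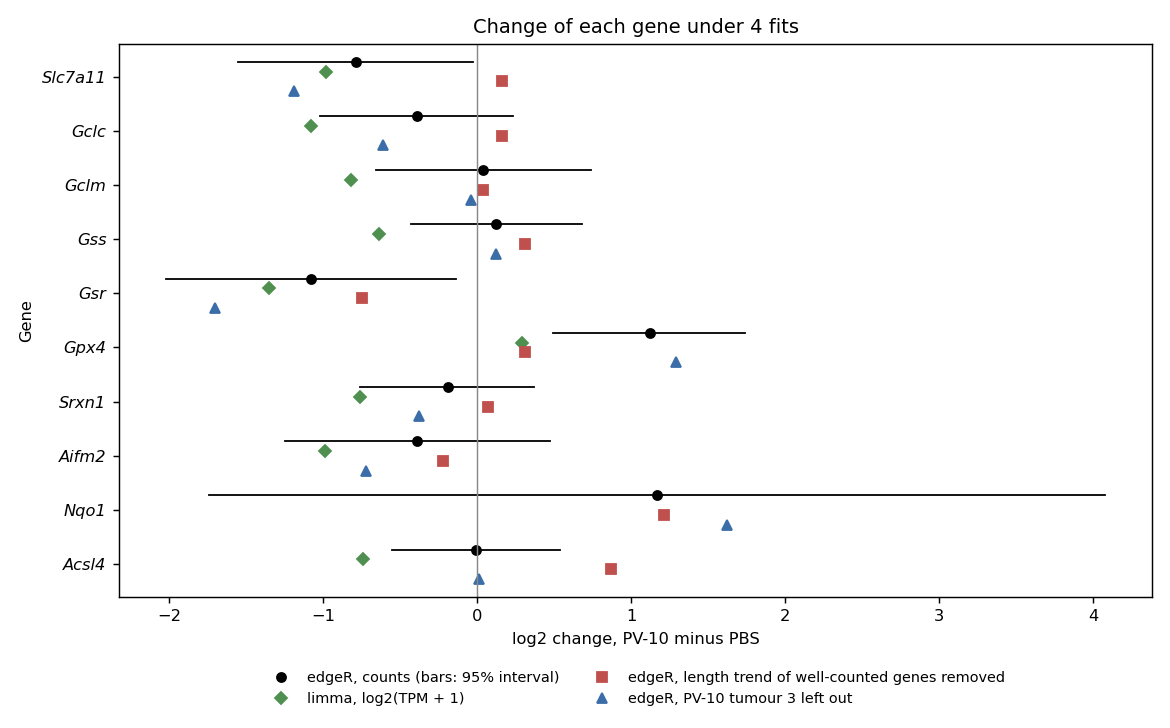
The log2 change (x axis, PV-10 minus PBS) of each gene (y axis) in the edgeR test on counts with its 95% interval (black), in limma on log2(TPM + 1) (green, not given for Nqo1, which was under the TPM minimum), with the length trend of well-counted genes removed (red) and without PV-10 tumour 3 (blue). Gsr lies below 0 in all 4 and Gpx4 above 0 in all 4. Slc7a11, Gclc and Srxn1 lie above 0 only with this length trend removed. Acsl4 lies near 0 in the edgeR test on counts and above 0 with this length trend removed.

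The wider pathway was described with 8 lists of 144 other genes, of which 142 were tested. In the edgeR test 7 of the 142 were called higher and 3 lower, and their median change was -0.15. These are 4.93% and 2.11% of the pathway genes, beside 3.17% and 1.92% of all genes tested. With DESeq2 the counts were 28 and 22 (all genes 21.2% and 8.41%). Without PV-10 tumour 3 they were 31 and 49 (all genes 25.0% and 16.4%), and the calls added then were spread over several lists. Among them were Slc3a2 (-1.57), Chac1 (-1.03), Fads2 (-1.47), Scd2 (-2.04), Nfe2l2 (-0.91) and Ftl1 (-0.61), lower, and Gpx1 (1.06), higher, with edgeR adjusted p from 0.00195 for Scd2 to 0.0335 for Ftl1. The 10 pathway genes called by edgeR were also called by DESeq2, but with any 1 of the 5 tumours other than PV-10 tumour 3 left out their edgeR adjusted p ran from 0.0738 to 0.219, and without PV-10 tumour 3 it was at most 0.00743. Of these called pathway genes 5 were also called in limma on log2(TPM + 1) and 7 with the length trend of well-counted genes removed, settings whose shares over all genes are given above.

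Transporters that feed glutathione synthesis were the list with the lowest median change. Of 17 genes for the supply of cystine, glutamate and glycine, 2 fell and 0 rose, and the median change was -0.55. In CPM 8 had all PV-10 tumours below all PBS tumours and 1 had them all above, beside 16.8% and 22.0% of all genes tested. Slc6a9, the glycine transporter GlyT1, fell from 35.1 ± 1.02 to 7.51 ± 6.57 CPM (log2 change -2.22, 95% interval -3.41 to -1.02, edgeR adjusted p = 0.0489). Its values were 3.22, 4.24 and 15.1 CPM after PV-10 in the same order, all below the 34.1 to 36.1 CPM of PBS tumours. Slc1a4, the neutral amino acid transporter ASCT1, fell from 27.1 ± 3.02 to 9.16 ± 4.35 CPM (log2 change -1.56, edgeR adjusted p = 0.0451). Both were also lower in limma on log2(TPM + 1), at -2.03 and -1.69 (adjusted p = 0.0179 for each). With the length trend of well-counted genes removed, Slc6a9 was at -1.87 (edgeR adjusted p = 0.0466) and Slc1a4 at -0.96 (edgeR adjusted p = 0.0538). Glud1, the mitochondrial glutamate dehydrogenase and the most abundant of the list, averaged 458 CPM after PBS and 518 CPM after PV-10 (edgeR adjusted p = 0.687).

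Genes that use or break down glutathione had more values above PBS in CPM. Of 32 tested, 3 rose and 1 fell, and the median change was 0.66, against 0.30 for all genes tested. In CPM 17 had all PV-10 tumours above all PBS tumours and 4 had them all below, beside 22.0% and 16.8% of all genes tested. Of these 17, only Gpx1, Mgst2, Mgst3, Glrx3, Hagh and Dpep1 were also wholly above PBS in TPM. Mgst3, a membrane glutathione transferase with peroxidase activity, rose from 15.6 ± 1.95 to 46.7 ± 14.7 CPM (log2 change 1.58, edgeR adjusted p = 0.0443). Glrx3, a monothiol glutaredoxin of iron-sulfur handling, rose from 45.5 ± 0.343 to 129.6 ± 52.3 CPM (log2 change 1.51, edgeR adjusted p = 0.0446), and Hagh, the second glyoxalase, from 12.6 ± 0.374 to 25.8 ± 4.36 CPM (log2 change 1.04, edgeR adjusted p = 0.0488). On log2(TPM + 1) these 3 were at 0.68, 0.75 and 0.28 and were not called by limma (adjusted p = 0.115, 0.107 and 0.485). Abcc1, which exports glutathione and its conjugates, fell from 125 ± 1.94 to 43.1 ± 20.7 CPM (log2 change -1.54, edgeR adjusted p = 0.0456) and was at -2.52 on log2(TPM + 1) (limma adjusted p = 0.0179).

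Other members of that list were named for their role or level. Chac1, an ATF4 target that degrades glutathione in the cytosol, stood at 14.5, 11.7 and 14.5 CPM after PBS and at 6.61, 6.68 and 8.49 CPM after PV-10. All PV-10 tumours were below all PBS tumours, with a log2 change of -0.90 (95% interval -1.50 to -0.30, edgeR adjusted p = 0.0662). Gpx1, the abundant cytosolic glutathione peroxidase, averaged 171 ± 21.0 and 325 ± 52.1 CPM (log2 change 0.93, edgeR adjusted p = 0.0625), close to the change of Gpx4. Over 21 alternative settings the change of Gpx1 ran from 0.09 to 1.11, and it was called higher in 5 of them.

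Selenoprotein synthesis matters here because GPX4 carries selenocysteine. Of 10 genes, 2 rose and 0 fell, with a median change of -0.07. Selenop, the secreted carrier of selenium, was the most abundant of the list, at 538, 251 and 283 CPM after PBS and 1657, 1429 and 918 CPM after PV-10 in the same order. All PV-10 tumours were above all PBS tumours, with a log2 change of 1.90 (95% interval 1.03 to 2.77, edgeR adjusted p = 0.0443) and 1.14 on log2(TPM + 1) (limma adjusted p = 0.0199). Trnau1ap, which binds the selenocysteine transfer RNA, rose from 7.71 ± 0.834 to 17.2 ± 2.98 CPM (log2 change 1.16, edgeR adjusted p = 0.0457), but was at 0.42 on log2(TPM + 1) (limma adjusted p = 0.362). Sephs1 averaged 40.2 and 38.3 CPM in the groups (edgeR adjusted p = 0.887).

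Genes that handle and oxidise membrane lipids, the list nearest to Acsl4, held 0 calls in either direction of 19, with a median change of -0.50. Besides genes of polyunsaturated lipids it holds Scd1, Scd2, Mboat1 and Mboat2, which serve monounsaturated ones. The list as a whole therefore does not speak for polyunsaturated lipids alone. In CPM 8 lay wholly below PBS and 1 wholly above, beside 16.8% and 22.0% of all genes tested. Fads2, the delta-6 desaturase, came closest, from 34.7 ± 14.5 to 13.4 ± 1.59 CPM (log2 change -1.37, 95% interval -2.13 to -0.61, edgeR unadjusted p = 0.00257), and its adjusted p did not come under the threshold. Fads1 had 124 ± 41.9 and 56.1 ± 23.2 CPM, and the stearoyl-CoA desaturase Scd2 656 ± 144 and 255 ± 170.4 CPM (edgeR adjusted p = 0.0786 and 0.0839). Far1, which makes the fatty alcohols of ether lipids, had 151 ± 24.9 and 172 ± 9.88 CPM with overlapping groups (edgeR adjusted p = 0.629).

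NADPH supply, which powers glutathione reductase, held 0 calls in either direction of 13 and a median change of -0.32. G6pdx, the entry enzyme of the pentose phosphate pathway, had 133, 102 and 101 CPM after PBS and 47.0, 57.1 and 85.5 CPM after PV-10, without overlap (log2 change -0.83, edgeR adjusted p = 0.102). Mthfd1, of the folate cycle, was at -0.96 (edgeR adjusted p = 0.0819) and the transketolase Tkt at -0.63 (edgeR adjusted p = 0.245). Quinone and pterin radical traps, which act beside FSP1, also held 0 calls of 13, with a median of 0.20. Cbr1, a carbonyl and quinone reductase, had 3.51 ± 0.773 and 8.35 ± 2.13 CPM without overlap (log2 change 1.25, edgeR adjusted p = 0.0565).

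NRF2 itself and its partners held 1 call in 19 tested genes, and the median change was -0.40. Nfe2l2, which encodes NRF2, had 348, 285 and 291 CPM after PBS and 162, 166 and 284 CPM after PV-10, all just or well below PBS (log2 change -0.59, 95% interval -1.28 to 0.09, edgeR adjusted p = 0.222). Keap1, which marks NRF2 for degradation, and Bach1, which competes with NRF2 at its sites, were also wholly below PBS, at -0.55 and -0.52 (edgeR adjusted p = 0.209 and 0.198). The NRF2 targets Txnrd1 (-0.28, edgeR adjusted p = 0.534) and Hmox1 (-0.51, edgeR adjusted p = 0.486) overlapped between groups, and without PV-10 tumour 3 they were at -0.49 and -1.09 (edgeR adjusted p = 0.0793 and 0.0602). Hmox1 was highest in PBS tumour 2 (125 CPM) and lowest in PV-10 tumour 1 (30.0 CPM). The gene called was Prdx1, a peroxiredoxin, which rose from 90.3 ± 13.8 to 308 ± 134 CPM (log2 change 1.77, 95% interval 0.93 to 2.61, edgeR adjusted p = 0.0443) but was at 0.66 on log2(TPM + 1) (limma adjusted p = 0.108).

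Iron handling and other regulators of ferroptosis held 1 rise and 0 falls in 19 genes, with a median change of 0.11. Sat1, the polyamine acetyltransferase whose activity is known to sensitise cells to ferroptosis, rose from 51.3 ± 7.88 to 172 ± 55.5 CPM (log2 change 1.74, 95% interval 1.02 to 2.47, edgeR adjusted p = 0.0443). It was at 0.95 on log2(TPM + 1) and called there too (limma adjusted p = 0.0346). The ferritin chains Fth1 (1443 and 1833 CPM after PBS and after PV-10) and Ftl1 (954 and 847 CPM) were the most abundant. Their edgeR adjusted p was 0.527 and 0.765. Map1lc3b, of autophagy, was at 1.06 (edgeR adjusted p = 0.0505).

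**Figure D5:**
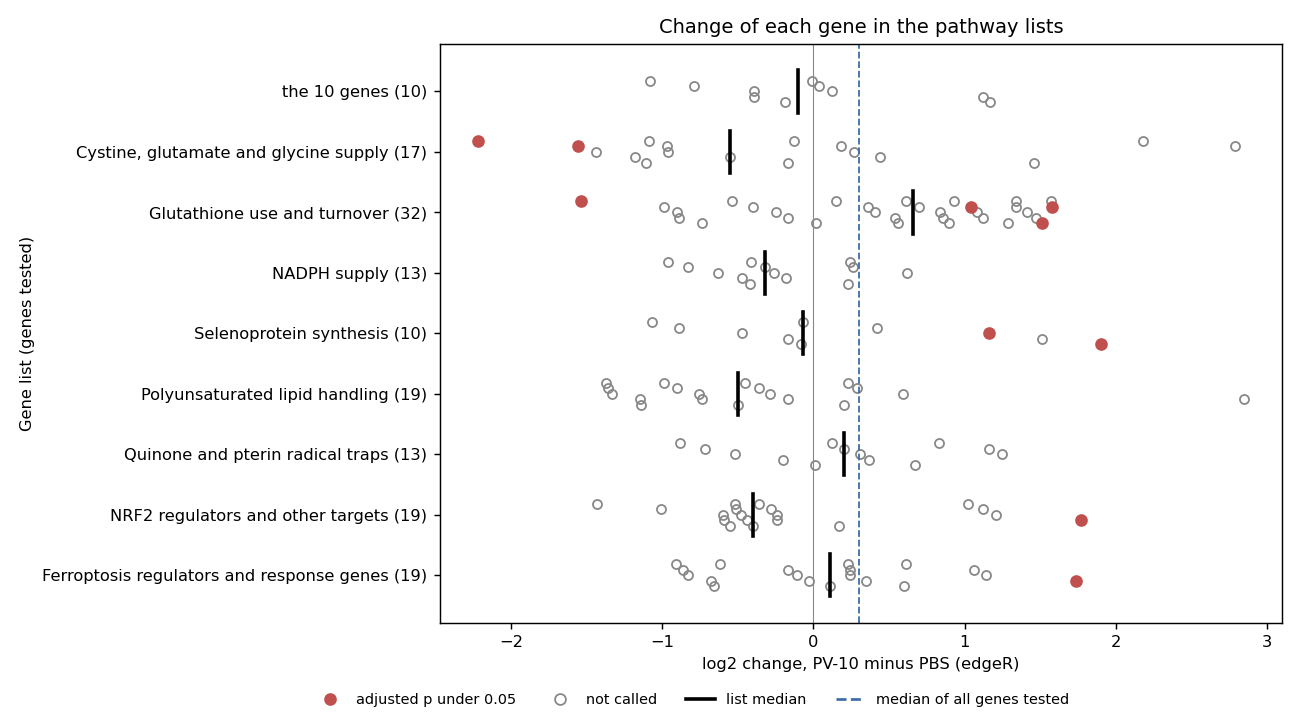
The log2 change from edgeR (x axis) of the 10 genes and of each tested gene in the 8 pathway lists (y axis, number tested in brackets). Filled red points passed an adjusted p under 0.05, black bars are list medians, and the dashed line is the median of all genes tested (0.30). The transporter list has the lowest median (-0.55) and the glutathione use list the highest (0.66).

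The genes with a pattern most like Slc7a11 and Gpx4 over the 6 tumours were found by the root mean square difference of centred log2 CPM among 11687 well-expressed genes. For Slc7a11 they were Nsd3, Icmt and Tepsin (0.06 each, against an SD of 0.63 for Slc7a11 itself). For Gpx4 they were Fam104a (0.04), Mrps16 (0.05) and Rnf138 (0.05), against an SD of 0.65. With 6 tumours in 2 groups, many genes share such a profile.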

How the data were processed

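RNA of 3 PBS and 3 PV-10 tumours, labelled as separate tumours, was sequenced as strand-specific libraries. Per the labels' protocols the authors trimmed adapters (BBMerge 37.02 and cutadapt 1.8.1), used STAR 2.7.7a for alignment to mm10, and estimated gene values by RSEM 1.3.0 on Gencode release M21. The deposited count table has raw whole-number counts per gene, and the deposited TPM table holds length-scaled values of the same tumours, made by the authors. No sample column was left unmapped (0). RSEM shares reads among similar genes, so pseudogenes affect values.

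Counts were tested with edgeR 4.0.16 (R 4.3.3, robust quasi-likelihood, TMM scaling, default expression filter, Benjamini-Hochberg over 22056 genes). The biological coefficient of variation was 0.777. Many genes share the lowest adjusted p of 0.0443, an effect of the ranking in that adjustment. TPM were tested with limma 3.58.1 on log2(TPM + 1), or + 0.1, for genes with a mean TPM of at least 0.5, which understates changes of low genes. Effective length was the count divided by the TPM, relative to the median gene.

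The genes named are the 10, from each list up to 4 called genes by p, the 2 most abundant and the 2 with the smallest p, and Nfe2l2, Keap1, Bach1, Slc3a2, Txnrd1, Hmox1 and Chac1. Not all are printed. The genes and lists were chosen with earlier results of these data known. Alternatives were DESeq2 1.42.0, limma-voom, other scalings and filters (no filter or a mean count of at least 50), length and GC trends (splines with 5 degrees of freedom), a replicate block and each tumour left out. Added after seeing the data were the length trend of genes with a mean count of at least 500, alone and without PV-10 tumour 3, and the sum of Gpx4 and its pseudogene. Promoter windows came from RefSeq.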

Additional observations from a re-analysis of the deposited data

How the results depend on the processing

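Of the 10 genes, 0 were called either way in the edgeR test, beside 699 genes higher and 423 lower of all tested, and 7 higher and 3 lower of the other pathway genes. Gpx4 alone was called higher (1 gene) with DESeq2, limma-voom, edgeR without the robust option, DESeq2-style size factors, scaling by library size only, without a low-count filter, with a mean count of at least 50 and the replicate block, and Gsr alone lower (1 gene) with no low-count filter, the replicate block and limma on log2(TPM + 0.1). Limma on log2(TPM + 1) called 2 lower. All genes called higher and lower were 5841 and 2319 with DESeq2, 1469 and 1068 with its size factors, 2037 and 2627 with no filter, 1593 and 1112 with a mean count of at least 50, and 214 and 4682 on log2(TPM + 1) or 207 and 4462 on log2(TPM + 0.1). Lower calls were 1181 with limma-voom and 1461 with library size alone. Pathway genes called higher and lower were 28 and 22 with DESeq2, 18 and 6 with DESeq2-style size factors, and 13 and 7 with limma-voom. They were 16 and 25 with no filter and 20 and 6 with a mean count of at least 50. On either TPM scale they were 2 and 51. Lower pathway calls were 5 without the robust option and 12 with library size alone. On the TPM scales with pseudocounts of 1 and 0.1, 9 of the 10 were tested. Their median change was -0.82 and -0.87, beside -0.67 and -0.93 for all genes tested.

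Removing the planned effective length trend, or that of length and GC, left 2 genes higher and 0 lower of all tested by edgeR, with 5212 and 5570 at an unadjusted p under 0.05, and 0 pathway calls either way. The medians of the 10 were then -0.62 and -0.56, beside -0.24 and -0.30 for all genes tested. In the effective length fit the median of genes with a mean count of at least 500 was -0.75. The effective length fit left a correlation of -0.40 between change and length among well-counted genes. After seeing the data, the trend was therefore refitted on those genes. There 251 genes were lower, and the median of the 10 was 0.16, beside 0.43 for all genes tested and -0.03 for the well-counted genes. With PV-10 tumour 3 also left out, all genes called were 7652 and 2514, pathway genes 34 and 25, and the 10 genes 1 and 1. The median of the 10 was then 0.13, beside 0.98 for all genes tested.

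The following changes reversed their sign. Acsl4 was at 0.10 with DESeq2, 0.11 with its size factors, 0.16 with a mean count of at least 50, and 0.87 and 1.09 with the refitted trend, with all tumours and without PV-10 tumour 3. Under these 2 settings Slc7a11 was at 0.16 and 0.04, Gclc at 0.16 and 0.18, and Srxn1 at 0.07 and 0.07. Gclm was at -0.82 and -0.83 and Gss at -0.64 and -0.71 on the TPM scales, at -0.54 and -0.43 with the effective length trend removed, and at -0.33 and -0.51 with that of length and GC. Gclm was at -0.05 with library size alone and -0.02 with no filter. The cause of these reversals was not tested.

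With 1 tumour left out, genes called ranged from 1 to 6884 higher and 0 to 4515 lower, pathway genes from 0 to 31 and 0 to 49, and the 10 genes from 0 to 1 and 0 to 3, each highest without PV-10 tumour 3. Acsl4 ran from -0.10 to 0.04, Gclm from -0.16 to 0.34 and Gss from -0.02 to 0.24. No pairing of the tumours by replicate number was seen. Same-numbered tumours deviated together with r of -0.049, 0.071 and 0.072, and differently numbered ones with r from -0.113 to 0.080. With 3 tumours per group this check cannot show that there was no pairing. The replicate block gave 1054 genes higher and 1818 lower, 15 and 14 pathway genes, and 1 and 1 of the 10 (Gpx4, adjusted p = 0.0431, and Gsr, 0.0296). Depth limits Nqo1 alone of the 10, at a mean count of 39.0.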
